A study of Mus musculus with 10 samples.

Results

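Krüppel-like factors are zinc finger proteins that bind GC-rich and CACCC sequences in promoters and enhancers. The family holds activators and repressors, and its members steer growth arrest and differentiation in many tissues, blood among them. Klf1, the founding member, drives red cell genes, and the 10 other factors described here were chosen by name: Klf2, Klf3, Klf4, Klf5, Klf6, Klf7, Klf9, Klf10, Klf11 and Klf13. They are 10 of the 55359 genes listed, and all 10 averaged 0.1 FPKM or more, as did the 18742 genes that were tested. FPKM, the number of fragments scaled to transcript length and library depth, is the unit throughout.

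Lin- bone marrow cells, from which mature blood cells are removed by antibodies to lineage markers, were profiled by RNA-seq from mice with the Dhx9f/f alleles alone (WT, 5 libraries) and with these alleles and MX1 (cKO, 5 libraries). Both groups carried floxed Dhx9, which encodes an RNA and DNA helicase. MX1 stands for a Cre driven by the Mx1 promoter, which interferon or poly(I:C) switches on in blood cells and in other cells. Ages, and whether WT mice were also given poly(I:C), are not stated for these libraries. The study's methods state that replicates are individual mice unless otherwise noted, and the labels number the libraries without naming mice. Dhx9 itself went against the labels, at 65.43 to 72.42 FPKM in WT and 130.8 to 156.5 FPKM in the libraries labelled cKO. These are whole-gene values that do not show a deleted exon, and every direction below is by label. WT replicates 3, 4 and 5 had Xist at 99.19 to 127.8 FPKM, whereas WT replicates 1 and 2 and all libraries labelled cKO were at 0.09 FPKM or less. Ddx3y, a gene of the Y chromosome, was at 0.05 FPKM or less in WT replicates 3, 4 and 5. All other libraries had it at 19.66 to 38.53 FPKM. The labels give no sex, but these genes read as female in WT replicates 3, 4 and 5 and male elsewhere. Group and sex are therefore partly confounded. Depth, recovered from low values, was 13836000 to 18710000 fragments per library, and 95.2% to 95.8% of the low values were whole numbers of fragments within 0.2.

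Markers of cell types differed between the groups too. Every one of 12 monocyte and dendritic markers passed as lower under the label cKO, and their summed level was 775.2 to 1360 FPKM in WT and 6.31 to 216.1 FPKM in the other group, with none at 0 in all libraries of a group. Erythroid markers went the other way, with 7 of 11 called higher and the other 4 higher by adjusted p alone, at summed levels of 514.7 to 1544 FPKM and 2171 to 3376 FPKM. Neutrophil markers spanned 2740 to 3721 FPKM in WT and 149.1 to 2668 FPKM in the libraries labelled cKO, with 5 of 12 called lower. These 5 were Elane, Mpo, Prtn3, Ctsg and Cxcr2. The other 7 were not called, had the higher mean under the label cKO and were all highest in cKO replicate 1. Their log2 fold changes had both signs, from -1.24 (S100a8) to 1.43 (Ngp). Lower calls also took in 8 of 8 megakaryocyte, 5 of 6 mast and basophil, 3 of 6 B lymphoid, 4 of 8 T and NK and 6 of 9 stem cell markers. Of the stem cell markers 1, Mllt3, went the other way by adjusted p alone, from a mean of 5.78 FPKM to 10.6 FPKM. Among 9 stromal and endothelial markers 6 were called lower and 1 higher. Beside all these counts, 16.8% of all genes tested were called lower and 4.60% higher. In such bulk samples, fewer cells of a type and less RNA per cell cannot be told apart.

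Because the family binds GC boxes, the 250 bases before the start of each gene's canonical transcript were searched. For Klf3, Klf4 and Klf7 other annotated transcripts begin farther upstream, so that the window lies wholly (Klf3, Klf7) or in part (Klf4) inside the gene span given below. Shown here are Klf4 and Klf6, whose transcripts fell most among the abundant members, Klf5, which rose, and Klf9, the member with no match. The capitals mark GGGCGG, the GC box, or CCGCCC, the same letters on the other strand. The sequences are GRCm39 and run 5′ to 3′ on the gene's strand. They lie at chr4:55532529-55532716 (minus, Klf4), chr13:5911231-5911480 (plus, Klf6), chr14:99535836-99536085 (plus, Klf5) and chr19:23117937-23118186 (plus, Klf9). For Klf4 the 62 bases nearest to the start are left out, since other annotated transcripts begin there.
Klf4: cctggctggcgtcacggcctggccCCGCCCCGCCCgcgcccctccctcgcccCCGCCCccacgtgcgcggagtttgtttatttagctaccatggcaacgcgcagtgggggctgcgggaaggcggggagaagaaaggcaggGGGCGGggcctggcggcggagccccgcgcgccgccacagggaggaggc
Klf6: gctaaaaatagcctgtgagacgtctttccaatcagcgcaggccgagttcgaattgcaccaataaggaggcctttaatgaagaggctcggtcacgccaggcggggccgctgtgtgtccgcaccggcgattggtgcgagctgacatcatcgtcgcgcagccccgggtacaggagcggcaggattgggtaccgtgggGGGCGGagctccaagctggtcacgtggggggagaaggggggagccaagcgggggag
Klf5: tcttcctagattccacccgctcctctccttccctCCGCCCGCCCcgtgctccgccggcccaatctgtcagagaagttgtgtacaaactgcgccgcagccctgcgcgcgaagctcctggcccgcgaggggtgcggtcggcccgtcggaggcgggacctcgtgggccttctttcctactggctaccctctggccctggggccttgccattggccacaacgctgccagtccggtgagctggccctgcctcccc
Klf9: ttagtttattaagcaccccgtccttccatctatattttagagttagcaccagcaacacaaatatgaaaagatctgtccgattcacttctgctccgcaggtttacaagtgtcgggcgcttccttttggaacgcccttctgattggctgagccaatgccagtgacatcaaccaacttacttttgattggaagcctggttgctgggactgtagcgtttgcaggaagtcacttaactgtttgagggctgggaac

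Klf4 held 4 GC boxes between 226 and 105 bases before its start, of which one pair overlapped by 1 base. In Klf6 a single one lay 56 to 51 bases before the start. Klf5 held an overlapping pair at 216 to 207 bases. A GC box was present in 9 of the 10 members and in 47.7% of 12877 promoters of tested protein-coding genes, so the letters were common in general. Klf9 was also the member with the lowest GC content in this window, 46.4%, against 63.2% to 82.4% in the others. The CACACCC form of the CACCC box was in 0 members and 7.45% of promoters. None of the members held GAGGAAGT (PU.1 type, 2.26% of promoters), TGTGGTTT (RUNX type, 1.27%) or TGACGTCA (the cAMP response element, 1.98%), each searched on both strands. The 4 members called lower and Klf5, called higher, all held a GC box.

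Comparing the libraries labelled cKO with WT asks how the family's transcripts stand after the intended loss of Dhx9. Klf2, Klf4, Klf6 and Klf10 were called lower and Klf5 higher by limma, where a call needs a 2-fold change or more and an adjusted p below 0.05. Called lower were 4 of 10 members, beside 16.8% of all genes tested, and called higher were 1 of 10, beside 4.60%. By adjusted p alone 6 members were lower and 2 higher, where 28.3% and 16.7% of all genes tested were. In 4 members every library labelled cKO lay below every WT library, which held for 21.6% of genes, and in 2 every one lay above, which held for 10.6%. The median log2 fold change of the members was -0.51, against -0.11 over all genes tested. Klf3 and Klf11 passed neither criterion, while Klf7, Klf9 and Klf13 passed the adjusted p with a change under 2-fold.

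**Figure D1:**
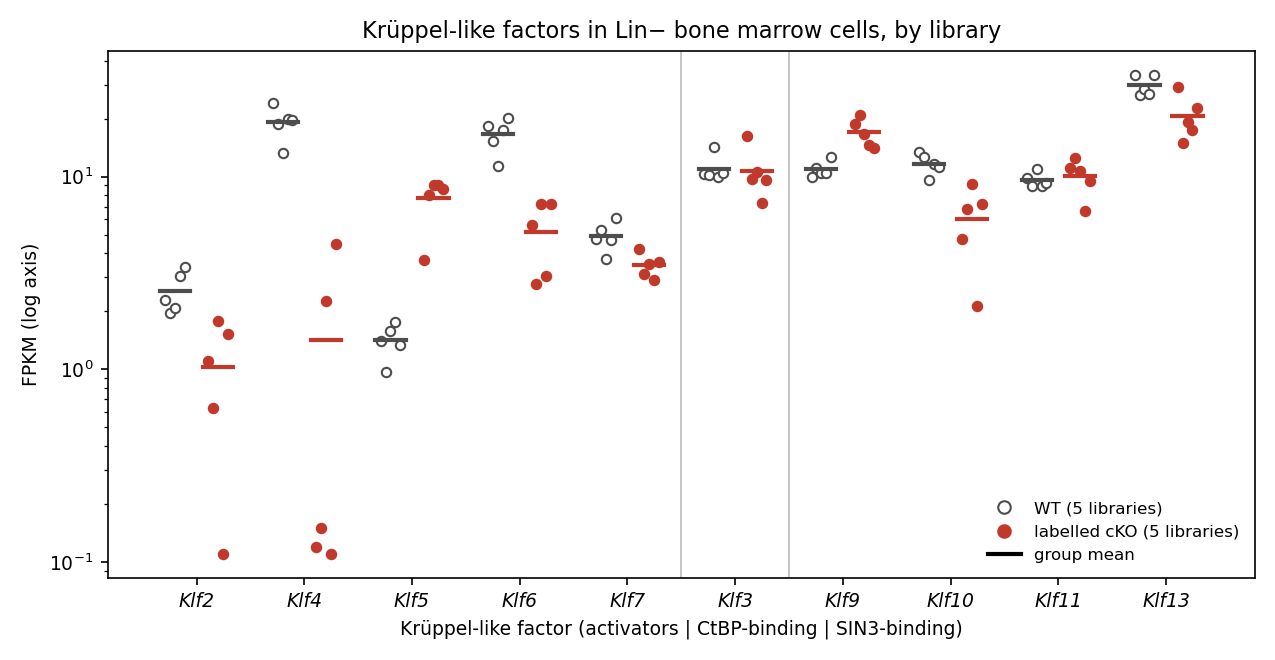
FPKM of the 10 Krüppel-like factors on a log axis, with 1 point per library (open, WT; filled, labelled cKO) and bars at group means. Klf4 falls from between 13.22 and 24.12 FPKM to between 0.11 and 4.47 FPKM, and Klf5 rises to between 3.70 and 9.10 FPKM.

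Klf4, an activator that promotes monocyte differentiation and one of the factors used to reprogram cells to pluripotency, showed the largest difference of the 10. It lies at chr4:55527139-55532528 on the minus strand (ENSMUSG00000003032). In WT replicates 1 to 5 it was at 24.12, 18.67, 13.22, 19.95 and 19.73 FPKM, and in the libraries labelled cKO at 0.12, 0.15, 2.25, 0.11 and 4.47 FPKM. The groups did not overlap, and the libraries labelled cKO themselves split into 3 near 0.1 FPKM, about 5 to 8 fragments each, and 2 well above. The means were 19.1 ± 3.91 and 1.42 ± 1.94 FPKM (SD, n = 5), 13.5-fold lower. The log2 fold change was -4.84 (SE 0.838, limma adjusted p = 0.000912). An exact two-sided permutation test gave p = 0.00794, the smallest that 5 libraries against 5 can give. The size of the fall depended on single libraries and on the pseudocount, at -5.54 without cKO replicate 5 and -3.38 with a pseudocount of 1.

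Klf6, an activator first known as a core promoter element binding protein and induced in activated macrophages, was the next most abundant member in WT. Its gene is at chr13:5911481-5920393 on the plus strand (ENSMUSG00000000078). WT libraries held 18.41, 15.38, 11.33, 17.47 and 20.24 FPKM and libraries labelled cKO 5.59, 2.77, 7.21, 3.05 and 7.18 FPKM, so that all of the latter lay below the lowest WT library. The mean went from 16.6 ± 3.41 to 5.16 ± 2.16 FPKM (SD, n = 5), 3.21-fold lower. On the log2 scale this was -1.75 (SE 0.286, limma adjusted p = 6.71e-04, exact permutation p = 0.00794).

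Klf2, which keeps T cells quiescent and answers to blood flow in endothelium, was a minor transcript in both groups. It is encoded at chr8:73072726-73075502 on the plus strand (ENSMUSG00000055148). Levels of 2.28, 1.96, 2.07, 3.04 and 3.38 FPKM in WT compared with 1.10, 0.63, 1.79, 0.11 and 1.53 FPKM in the libraries labelled cKO. The groups were separate but close, with 1.96 and 1.79 FPKM as their nearest values, and the lowest library rested on about 4 fragments. The log2 fold change was -1.54 (SE 0.525, limma adjusted p = 0.0337, exact permutation p = 0.00794). This call was lost without WT replicate 1 (adjusted p = 0.0561), 4 (0.0710) or 5 (0.0752), and without cKO replicate 2 (0.0710, all by limma).

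Klf5, an activator of dividing cells such as those of the intestinal crypt, was the only member called higher, and it was the least abundant of the 10 in WT. Its gene spans chr14:99536086-99552473 on the plus strand (ENSMUSG00000005148). WT libraries had 1.40, 0.97, 1.58, 1.77 and 1.34 FPKM, and those labelled cKO had 3.70, 8.08, 9.07, 9.10 and 8.58 FPKM. Of the 5 libraries labelled cKO, 4 lay within 8.08 to 9.10 FPKM, and replicate 1 was lower but still above the highest WT library. The mean rose from 1.41 ± 0.299 to 7.71 ± 2.28 FPKM (SD, n = 5), a ratio of 5.46. Its log2 fold change was 2.32 (SE 0.256, limma adjusted p = 1.05e-04, exact permutation p = 0.00794).

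Klf7, an activator known for axon growth in neurons, changed less (chr1:64068606-64161508, minus strand, ENSMUSG00000025959). It was at 4.72, 5.31, 3.72, 4.67 and 6.10 FPKM in WT, while libraries labelled cKO gave 4.22, 3.14, 3.54, 2.92 and 3.62 FPKM. The ranges overlapped, because WT replicate 3 lay below cKO replicate 1. The log2 fold change of -0.47 (SE 0.148) passed limma's adjusted p alone (0.0230), with an exact permutation p of 0.0159. It no longer passed under median-ratio scaling (-0.37, limma adjusted p = 0.0585) or quantile normalization (-0.12, adjusted p = 0.497). Nor did it pass in limma without WT replicate 2 (adjusted p = 0.0558) or 5 (0.0602), or without cKO replicate 2 (0.0560) or 4 (0.0546). So, of the 5 activators, 3 were called lower, 1 higher and 1 was lower by adjusted p alone.

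Klf9, Klf10, Klf11 and Klf13 repress by binding the SIN3 corepressor, and they did not move as a block. Klf10, a transcript that TGF-β induces early, was called lower (chr15:38291703-38300959, minus strand, ENSMUSG00000037465). It held 13.43, 12.64, 9.60, 11.60 and 11.25 FPKM in WT and 4.72, 6.79, 9.21, 2.12 and 7.23 FPKM in the libraries labelled cKO. The highest of these, 9.21 FPKM, was just under the lowest WT value, 9.60 FPKM. The mean went from 11.7 ± 1.46 to 6.01 ± 2.70 FPKM (SD, n = 5), 1.95-fold lower. Its log2 fold change, which averages log2 values and decides the call, was -1.09 (SE 0.324, limma adjusted p = 0.0177, exact permutation p = 0.00794). Without cKO replicate 4 the change was -0.77 and the call was lost by its size.

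Klf9, which glucocorticoids and thyroid hormone induce, was higher in every library labelled cKO than in any WT library, by less than 2-fold. It lies at chr19:23118187-23148497 on the plus strand (ENSMUSG00000033863). WT values were 9.96, 11.12, 10.42, 10.43 and 12.62 FPKM, followed by 18.68, 20.95, 16.71, 14.59 and 14.06 FPKM in the other group. The mean of 10.9 ± 1.04 FPKM became 17.0 ± 2.87 FPKM (SD, n = 5), a log2 fold change of 0.62 (SE 0.117, limma adjusted p = 0.00144, exact permutation p = 0.00794). It was thus the second member to pass the adjusted p upwards, after Klf5.

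Klf13, a factor at the Ccl5 promoter in T lymphocytes and the most abundant member in both groups, was somewhat lower (chr7:63536099-63588663, minus strand, ENSMUSG00000052040). It measured 33.84, 26.53, 28.47, 27.02 and 33.57 FPKM in WT and 29.31, 15.02, 19.16, 17.42 and 22.72 FPKM in the libraries labelled cKO. Only replicate 1 of the latter reached into the WT range. The log2 fold change was -0.56 (SE 0.163, limma adjusted p = 0.0165, exact permutation p = 0.0317).

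Klf11, a close relative of Klf10, stayed without a detected difference (chr12:24701273-24712913, plus strand, ENSMUSG00000020653). WT libraries gave 9.88, 8.93, 10.98, 8.95 and 9.27 FPKM and libraries labelled cKO 11.09, 12.47, 10.75, 6.64 and 9.45 FPKM. The second group enclosed the first, and the log2 fold change was 0.04 (SE 0.152, limma adjusted p = 0.842, exact permutation p = 0.825).

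Klf3, a repressor that recruits CtBP and is itself activated by Klf1 in red cell precursors, also gave no detected difference. Its gene lies at chr5:64959875-64990261 on the plus strand (ENSMUSG00000029178). Levels were 10.38, 10.17, 14.20, 9.92 and 10.40 FPKM in WT and 16.33, 9.67, 10.63, 7.33 and 9.65 FPKM in the libraries labelled cKO. A single library was high in each group, WT replicate 3 and cKO replicate 1. The log2 fold change was -0.08 (SE 0.188, limma adjusted p = 0.773, exact permutation p = 0.770), and its sign was positive under median-ratio scaling (0.03).

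**Figure D2:**
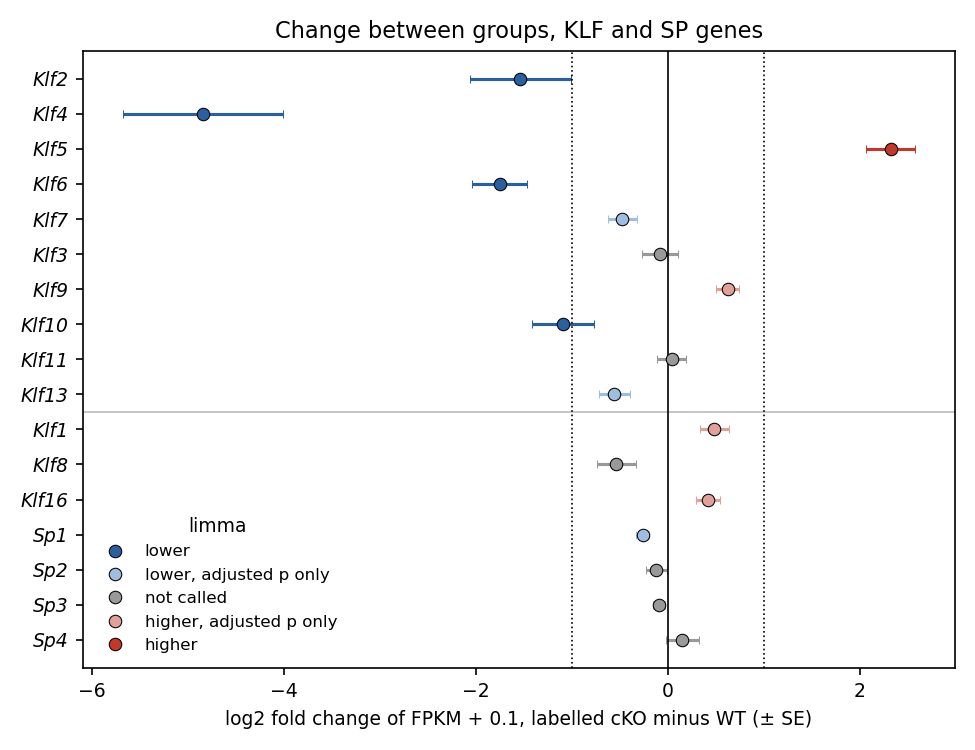
Log2 fold change of FPKM + 0.1, libraries labelled cKO minus WT, with its SE for the 10 members and, below the line, the other KLF and SP genes tested. Dotted lines mark a 2-fold change, which Klf2, Klf4, Klf6 and Klf10 pass downwards and Klf5 upwards.

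FPKM is a level per length, so the members could be ranked and summed. In WT the order of mean levels was Klf13, Klf4, Klf6, Klf10, Klf3, Klf9, Klf11, Klf7, Klf2 and Klf5. Neighbours in this order overlapped in range except at Klf13 against Klf4, Klf11 against Klf7, Klf7 against Klf2 and Klf2 against Klf5. In the libraries labelled cKO the order was Klf13, Klf9, Klf3, Klf11, Klf5, Klf10, Klf6, Klf7, Klf4 and Klf2, and all neighbours overlapped. Klf4 thus went from rank 2 to rank 9 and Klf5 from rank 10 to rank 5.

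Summed over the 10 members, the level was 128.4, 111.7, 105.6, 114.8 and 127.9 FPKM in WT and 94.86, 79.67, 90.32, 63.39 and 88.49 FPKM in the libraries labelled cKO. All of the latter lay below all of the former, and the difference of the means was -34.3 FPKM. The make-up of the sum changed with it. Klf4 took a mean 16.2% of the sum in WT and 1.61% in the libraries labelled cKO, and Klf6 13.98% and 6.06%. Klf9 rose from 9.31% to 20.7% of the sum, and Klf5 from 1.21% to 9.63%. Klf13 kept close shares, 25.4% and 24.8%, although its own level was lower.

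**Figure D3:**
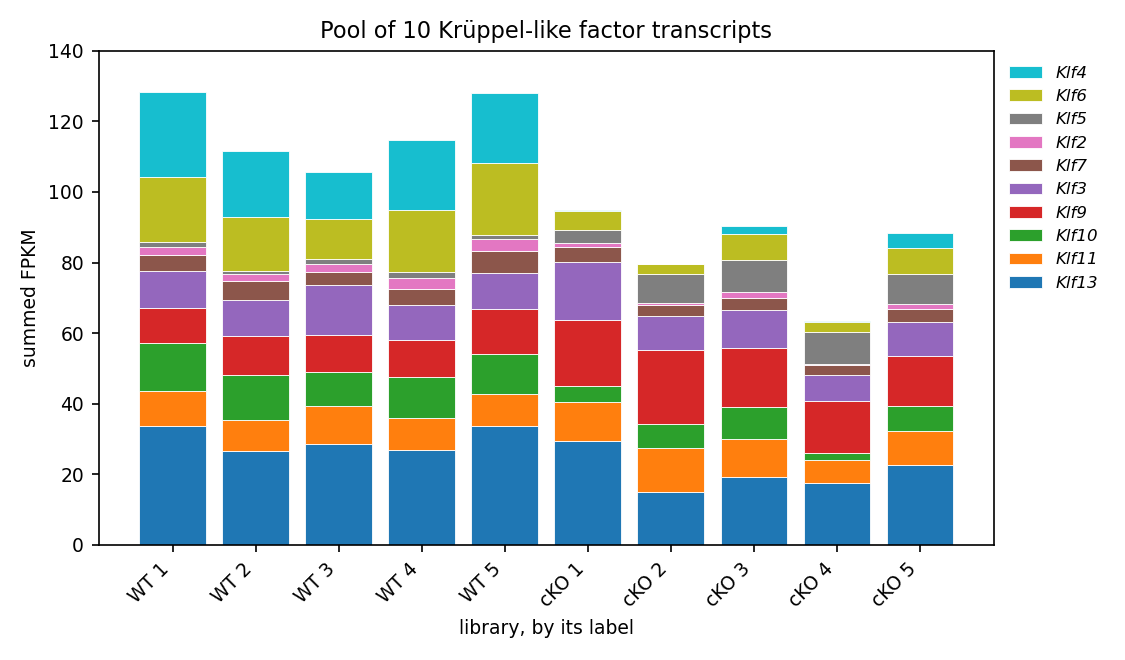
Stacked bars of the FPKM of the 10 members in each library, starting at 0. The sums span 105.6 to 128.4 FPKM in WT and 63.39 to 94.86 FPKM in the libraries labelled cKO, where the Klf4 segment is thin or not visible and the Klf5 and Klf9 segments are larger.

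On the log2 scale the libraries labelled cKO were less alike than WT in most members. The SD of the log2 values was larger there in 9 of 10 members, the exception being Klf7. No share over all genes is given beside this count. In FPKM the SD was larger in WT for Klf4 (3.91 against 1.94), Klf6 (3.41 against 2.16) and Klf7 (0.878 against 0.500). For the other members it was larger under the label cKO. For Klf4 the highest library was 40.6 times the lowest, against 1.82 times in WT. The same ratio was 16.3 against 1.72 for Klf2 and 4.34 against 1.40 for Klf10. The lowest libraries labelled cKO rested on about 5 fragments for Klf4 and 4 for Klf2, which limits these ratios. Replicate 4 was the lowest of the libraries labelled cKO in 6 members, namely Klf2, Klf3, Klf4, Klf7, Klf10 and Klf11, and the highest for Klf5. Replicate 1 was the highest for Klf3, Klf7 and Klf13 and the lowest for Klf5.

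These differences ran beside the cell type markers. In libraries labelled cKO, the summed monocyte and dendritic markers were at 50.82, 15.71, 139.1, 6.31 and 216.1 FPKM in replicates 1 to 5. Klf4 was highest in replicates 5 and 3, the libraries with the most of these markers, and Klf2, Klf6 and Klf10 were also highest in those libraries. Replicate 1 had more marker RNA than replicate 2 or 4, while its Klf4 level, 0.12 FPKM, lay between theirs, 0.15 and 0.11 FPKM. Klf5 did not follow the same order, at 8.08 to 9.10 FPKM in replicates 2 to 5 across the whole range of marker levels. Replicate 1, which was low in Klf5, had the highest neutrophil marker sum of its group, 2668 FPKM against 149.1 to 1129 FPKM. The largest parts of that sum were S100a9 (894.8 FPKM), S100a8 (442.9 FPKM) and Ngp (317.6 FPKM), which were not called. The summed erythroid markers were at 3353, 3376, 3208, 3090 and 2171 FPKM in cKO replicates 1 to 5, and Klf9 ranked these libraries in the same order. In WT the orders differed, with Klf9 highest in replicate 5, where the erythroid sum was lowest, 514.7 FPKM. The part of all these markers in the changes of the members was not tested.

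**Figure D4:**
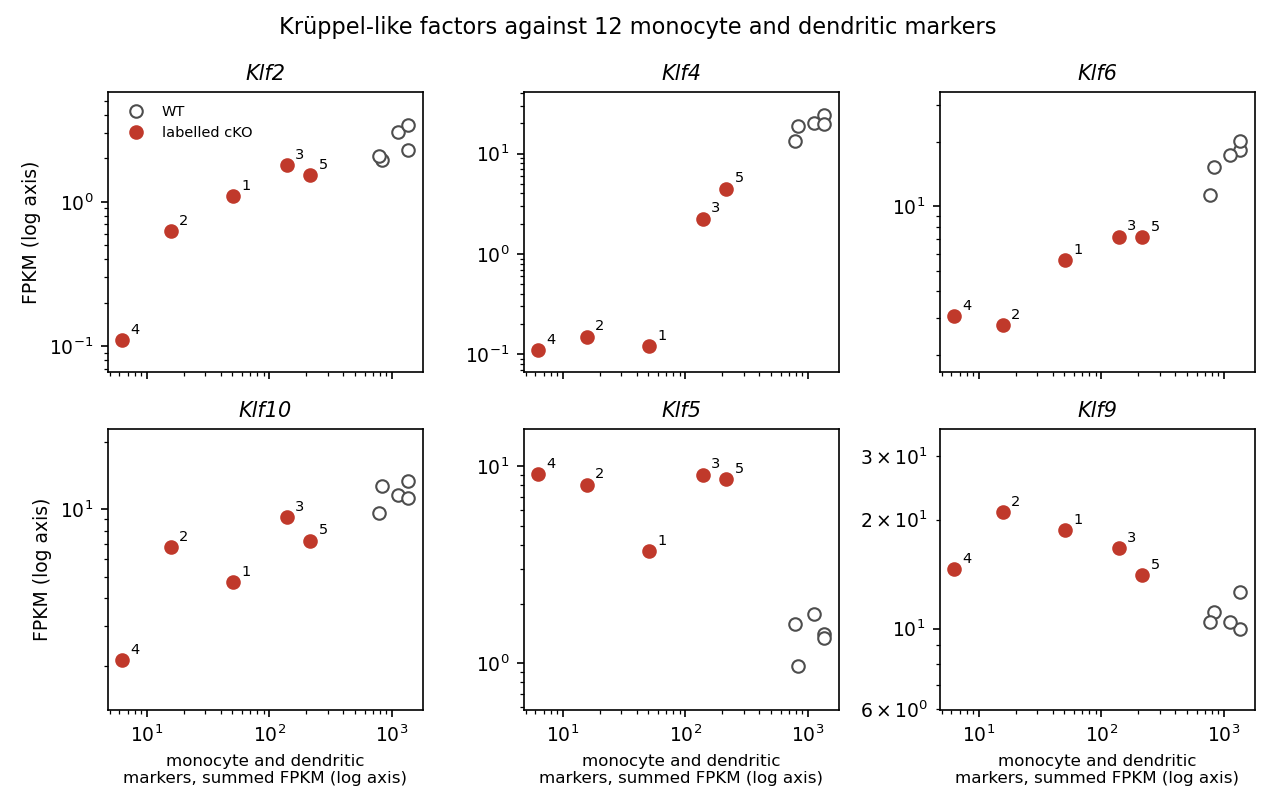
Levels of 6 Krüppel-like factors (FPKM, log axis) against the summed FPKM of 12 monocyte and dendritic markers (log axis) in each library, with open points for WT and filled, numbered points for replicates labelled cKO. Klf4 is above 2 FPKM in replicates 3 and 5 and at 0.11 to 0.15 FPKM in replicates 1, 2 and 4.

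Xist separated WT replicates 3 to 5 from all other libraries, so the comparison was repeated with WT replicates 1 and 2 alone against the 5 libraries labelled cKO. Klf4 (log2 fold change -5.02, limma adjusted p = 0.0310), Klf6 (-1.80, adjusted p = 0.0209) and Klf5 (2.55, adjusted p = 0.00776) were called as before. Klf2 (-1.31, limma adjusted p = 0.275) and Klf10 (-1.26, adjusted p = 0.106) no longer passed. With 2 WT libraries instead of 5 the SE rose, from 0.525 to 0.815 for Klf2 and from 0.324 to 0.501 for Klf10. The log2 fold change of Klf2 was smaller than with all libraries (-1.54), and that of Klf10 was not (-1.09). By adjusted p alone Klf9 still passed (0.67, limma adjusted p = 0.0275), whereas Klf7 (-0.52, adjusted p = 0.0763) and Klf13 (-0.57, adjusted p = 0.132) did not. For Klf7 and Klf13 too the SE rose, to 0.184 and 0.248. Their log2 fold changes were no smaller than with all libraries (-0.47 and -0.56). Within WT, Klf4 averaged 21.4 FPKM in the Xist-low and 17.6 FPKM in the Xist-high libraries, and Klf10 13.04 and 10.82 FPKM.

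Outside the 10, Klf1, the red cell factor, was at 87.5 ± 21.3 FPKM in WT and 120.7 ± 14.9 FPKM in the libraries labelled cKO (SD, n = 5). Its log2 fold change of 0.49 passed limma's adjusted p alone (0.0245). Klf16, another SIN3-binding repressor, likewise passed by adjusted p alone at 0.42 (limma adjusted p = 0.0167), and Klf8, a CtBP-binding one, gave -0.54 (adjusted p = 0.0543). Klf12, Klf14, Klf15 and Klf17 were below the filter on low values. The related SP factors, which share the zinc fingers and the GC box, had 0 of 4 tested genes called by limma. One of them, Sp1, the ubiquitous founder of that group, was lower by adjusted p alone (-0.26, limma adjusted p = 0.00879), and Sp2 (-0.12), Sp3 (-0.09) and Sp4 (0.15) did not pass. Sp5, Sp6, Sp7, Sp8 and Sp9 were below the filter.

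Transcripts of factors and signals that switch members on were mostly lower. Of 17 upstream regulators 3 were called lower, beside 16.8% of all genes tested, and 12 more were lower by adjusted p alone, beside 28.3% of all genes tested for both together. None was higher, and the list's median log2 fold change was -0.60, against -0.11 over all genes tested. All libraries labelled cKO lay below all WT libraries in 15 of the 17, which held for 21.6% of genes tested. Spi1, the myeloid factor PU.1, went from 40.3 ± 6.59 to 12.1 ± 2.26 FPKM (SD, n = 5; log2 fold change -1.73). Mef2c, at the end of the ERK5 pathway that drives Klf2 and Klf4, went from 7.70 ± 0.643 to 1.51 ± 0.919 FPKM (-2.46). Smad4, which carries the TGF-β signal to genes such as Klf10, went from 15.8 ± 2.35 to 7.68 ± 2.11 FPKM (-1.06). Tgfb1, the ligand of that pathway, fell by 0.60 on the log2 scale (limma adjusted p = 6.68e-04), whereas Myc, a growth factor induced gene, gave 0.16 and did not pass. Not all members had the direction of these transcripts. Nr3c1, the glucocorticoid receptor gene, was lower by adjusted p alone (-0.53, limma adjusted p = 8.85e-04). So was Thra, a thyroid hormone receptor gene (-0.38, limma adjusted p = 0.0065), whereas Klf9, which these hormones induce, was higher. Spi1 also marks the myeloid cells whose markers were lower. These are RNA levels, and a link between the regulators and the members was not tested.

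Of 15 corepressors and other partners 1 was called lower and none higher, beside 16.8% and 4.60% of all genes tested. A further 3 were lower and 2 higher by adjusted p alone, which with the call makes 4 and 2, beside 28.3% and 16.7% of genes, and the median was -0.14. Ctbp1, the partner of Klf3, had a log2 fold change of 0.33 (limma adjusted p = 0.00485). Hdac1, a deacetylase of the SIN3 complex, had -0.33 (adjusted p = 0.0194, limma), and its relative Hdac2 had -0.05 and did not pass. The called one was Smurf1, a ubiquitin ligase, at 2.49 ± 0.429 FPKM in WT and 1.09 ± 0.182 FPKM in the libraries labelled cKO (-1.13).

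Genes that have been reported as targets of the members were lower in more cases than higher. Of 12 tested 7 were called lower, 1 higher and 4 did not pass, beside 16.8% of all genes tested called lower and 4.60% higher. The median was -1.84, against -0.11 over all genes tested, and Nos3 was below the filter. Itgb7, an integrin gene under Klf2, was at 32.25 to 47.98 FPKM in WT and 8.66 to 14.01 FPKM in the libraries labelled cKO (log2 fold change -1.83). Thbd, the thrombomodulin gene that Klf2 and Klf4 activate, was at 5.26 to 7.41 and 0.20 to 1.30 FPKM (-3.25).

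Lgals3, a galectin gene that Klf3 represses, was lower as well (-3.43), although Klf3 gave no detected difference. Plau, the urokinase gene (-3.09), the chemokine gene Ccl5 (-2.36) and the lipopolysaccharide receptor gene Cd14 (-1.85) were also called lower. Cdkn1a, the cell cycle inhibitor p21 and a target of Klf4, Klf6 and p53, was higher, at 1.13 to 3.65 FPKM in WT and 5.57 to 42.60 FPKM in the libraries labelled cKO (3.21). Several of these genes are also made by myeloid cells or lymphocytes, and their part in the list's values was not tested.

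Several members, Klf2, Klf4, Klf6 and Klf10 among them, are known to be induced quickly by growth factors and stress. Whether this trait sets them apart from the other members was not tested. Beside them, the immediate-early genes, which share the trait, were examined. Their 15 tested members went both ways, with 3 called lower and 2 higher, beside 16.8% and 4.60% of all genes tested. The share called lower was thus near that of genes in general, and the share called higher, which rests on 2 genes, was above it. By adjusted p alone 1 more was lower and 5 more were higher. Calls included, 28.3% of all genes tested were lower and 16.7% higher by adjusted p, so the list's share was above the general one upwards only. The list's median was 0.66, against -0.11 over all genes tested. Fos went from 2.04 to 4.86 FPKM in WT to 0.15 to 1.79 FPKM in the libraries labelled cKO (log2 fold change -2.49), Nr4a1 changed by -1.95 and Zfp36, an RNA decay factor, by -1.53. Egr1 went the other way, from 0.25 to 0.80 FPKM to 1.74 to 9.64 FPKM (2.66), and so did Jun (1.59). Jund (0.84) and Btg2 (-0.48) passed the adjusted p alone and Ier2 (-0.13) did not pass. Fosb, Egr2 and Egr3 were below the filter.

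**Figure D5:**
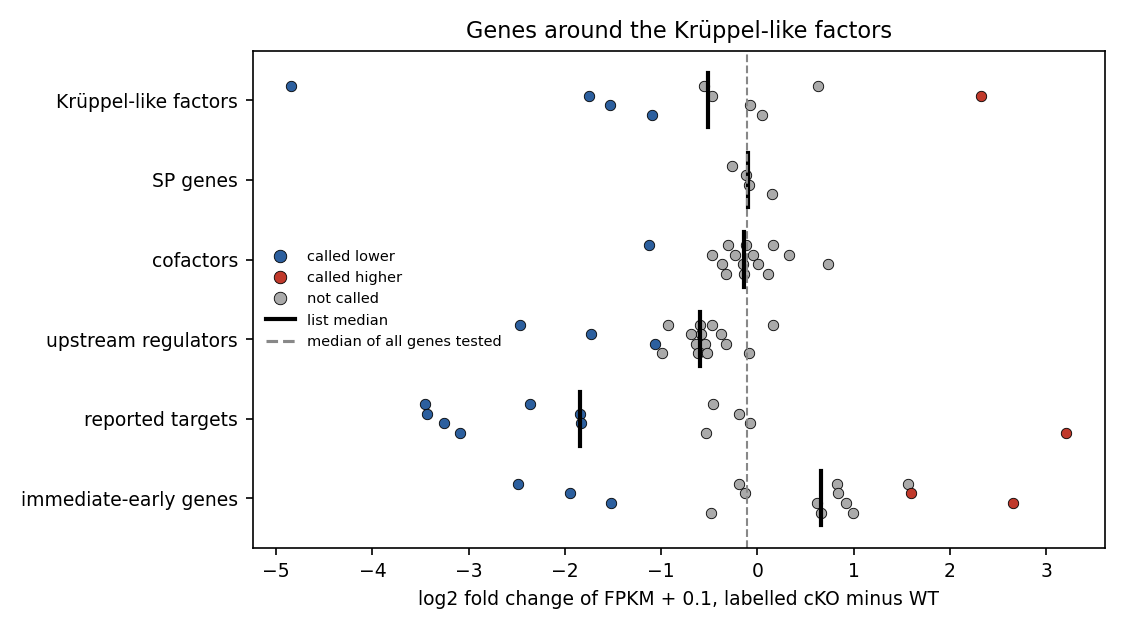
Log2 fold change of FPKM + 0.1 (libraries labelled cKO minus WT) for the Krüppel-like factors and 5 lists around them, with 1 point per gene tested, a black bar at each list's median and a dashed line at the median of all genes tested, -0.11. Upstream regulators (median -0.60) and reported targets (-1.84) lie mostly to the left, and immediate-early genes (0.66) lie on both sides.

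For the 3 most abundant members over all libraries, Klf13, Klf3 and Klf9, the genes with the most similar pattern were found by the root mean square difference of centred log2 levels over the 10 libraries, as a description. Nearest to Klf13 were Ccdc18 (0.111), Tmem63a (0.114) and Tnrc6c (0.117). Klf9 was nearest to Zfp850 (0.112), Hapstr1 (0.130) and the clock gene Cry2 (0.131). For Klf3 they were Scrn3 (0.127), Fancd2 (0.132) and Siah1a (0.142), all with cKO replicate 1 as the highest of its group.

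Reads of overlapping genes could enter some of these levels, since no use of strand is stated. Klf13 overlaps Gm27252, a noncoding gene on the other strand at 9.34 FPKM in WT and 3.47 FPKM in the libraries labelled cKO, but their annotated exons share 0 bases. Klf2 lies opposite to Eps15l1 (11.6 and 10.1 FPKM), also with 0 shared exonic bases. Klf3 shares 4.29% of its exonic bases with Gm20033, which was at no more than 1.60 FPKM in any library. Klf9 shares 4.05% with Gm56648, a noncoding gene on the other strand without a deposited value, so its part cannot be checked. Klf10 shares 1.48% with Gm35248 (0.25 FPKM at most) and Klf7 0.0826% with Gm13748 (2.86 FPKM at most).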

How the data were processed

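The authors trimmed the reads, aligned them to GRCm39 and deposited a table of FPKM with 2 decimals. The submitters' processing notes name cutadapt 1.9.1, HISAT2 2.0.1 and HTSeq 0.6.1. The annotation, the gene lengths and the use of strand are not given in the sources used here. FPKM are not counts, so no count test was run. Symbols came from the GENCODE annotation of GRCm39 (54749 of 55359 genes). The 18742 genes that averaged 0.1 FPKM or more entered a two-sided test in limma 3.58.1 (R 4.3.3, with a trend), for which 0.1 was added before taking log2. P-values were adjusted by Benjamini-Hochberg over all of them. This scale understates the change of low genes. A call needed a 2-fold change or more and an adjusted p below 0.05. The exact permutation test used the same log2 values (scipy 1.17.1, Python 3.11.15). The code was tested on simulated data. Fragment numbers use annotated lengths and are approximate for genes with several transcripts, and they carry counting error only.

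The members, 16 lists, markers and alternatives were chosen with earlier results of these data known. Named genes were the members, other KLF and SP genes tested, and of each list around them the 3 most abundant and those called, up to 8, and the 3 genes most like each of the 3 most abundant members. Gm27252, Eps15l1, Gm20033, Gm35248, Gm13748, Nr3c1, Thra and the cell type markers given by name were named after their values were seen. Gm56648, which has no value, was named for its overlap. One further gene of the reported targets, counted in its list, is not reported here. Ahsp and Vpreb1 of the marker lists were not matched. Alternatives changed the pseudocount, filter, scaling, trend, call rule, Xist covariate, replicate block and the libraries used.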

Additional observations from a re-analysis of the deposited data

Results flagged for a closer look

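Among 88 groups of 5 libraries, 10 had a library farther from the others than Dixon's critical value, where chance would give about 4.4 (1 in 20). Of the members, Klf3 stood apart in WT replicate 3 at 14.2 FPKM (others 9.92 to 10.4 FPKM), and Klf5 in cKO replicate 1 at 3.7 FPKM (others 8.08 to 9.1 FPKM). The same library stood apart for Klf1 (95.19 FPKM, others 122.7 to 132.6 FPKM), Sp3 (47.21 FPKM, others 38.31 to 40.47 FPKM) and Sp4 (17.37 FPKM, others 8.74 to 9.72 FPKM), which made 4 of the 10. The remaining 5 were Sp1 in WT replicate 1 (34.22 FPKM), Ctbp1 in cKO replicate 3 (79.69 FPKM), Btg2 in cKO replicate 4 (7.96 FPKM), Egr1 in cKO replicate 3 (9.64 FPKM) and Nr4a1 in WT replicate 5 (1.5 FPKM). Klf5 was called higher also without cKO replicate 1.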

How the results depend on the processing

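Klf4 and Klf6 were called lower and Klf5 higher under all alternatives tried. The number of members called lower was 2 instead of 4 with a pseudocount of 1, with quantile normalization, with a covariate for Xist and with only the Xist-low libraries, since Klf2 (-0.86 with a pseudocount of 1) and Klf10 lost their calls there. With the Xist covariate Klf7 (adjusted p = 0.0806, limma) and Klf13 (0.0822) did not pass by adjusted p either. The covariate gave the members the same log2 fold changes as the Xist-low libraries, so it is not a separate check. Klf2 also lost its call without the filter (adjusted p = 0.0511, limma), and Klf10 by its size under median-ratio scaling (-0.99). The number called higher was 2 by adjusted p alone, when Klf9 is counted, beside 16.7% of all genes tested. With each library left out in turn, 3 to 4 members were called lower and 1 higher. Beside them, 15.4% to 17.4% of all genes tested were called lower and 4.06% to 5.07% higher. The summed level of the members then differed by -37.4 to -29.4 FPKM. The log2 fold change of Klf3, which was not called, changed sign under median-ratio scaling (0.0304), quantile normalization (0.0579), the Xist covariate and the Xist-low libraries (both 0.0108), and spanned -0.24 to 0.0479 with 1 library left out. Klf11, also not called, spanned -0.0409 to 0.18. Quantile normalization moved the median of all genes from -0.11 to 0.10 and the calls from 3153 lower and 862 higher to 2245 and 1581, a pseudocount of 1 gave 1486 and 356, and adjusted p alone gave 5300 and 3138. The replicate numbers gave no clear pairing of the libraries. Correlations of deviations were weak (0.117, 0.0258, -0.0103, -0.0030 and 0.0929), although 3 of 5 WT libraries were closest to their own number. With a replicate block 4 members were called lower and 1 higher, beside 16.6% and 4.57% of all genes tested, and no call of a member changed. The causes were not tested. Values near 0.1 FPKM in Klf2 and Klf4 rest on about 4 to 8 fragments, which limits their fold changes.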
